A study of Gallus gallus with 8 samples.

Results

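The transcripts of chick area opaca epiblast that had been in contact with a grafted Hensen's node for 5 hours were compared with those of central pre-streak epiblast. The comparison covered the genes with at least 5 CPM in either of the 2 libraries, where the CPM value is a gene's count divided by the total of its library and multiplied by 1000000. Of 17329 genes in the count table, 9423 met this minimum. Of these, 8940 reached it in the grafted area opaca and 8877 in the central epiblast.

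The series holds 8 messenger RNA libraries of chick epiblast and ectoderm, 1 for each tissue, sequenced with no replicate. It was made to set the early response to a node graft beside the tissues of the normal embryo that become neural plate or placodes. The grafted area opaca came from host embryos at stage HH4, in which a node was placed in the outer, extraembryonic ring of the blastoderm and the epiblast touching it was taken afterwards. The central epiblast came from ungrafted embryos at EGKXII/XIII, before the primitive streak forms. Both libraries came from the same laboratory according to the labels. The ungrafted area opaca, taken from the other side of the grafted embryos at the same time, and the anterior pre-streak epiblast are given beside them for context. Neural plate, anterior and posterior preplacodal region and non-neural head ectoderm were from HH6/7. Each library was dissected tissue of a number of embryos that the labels do not state, with no strain or genotype named. Grafted area opaca and central epiblast differ in region, in age and in the graft at once, and their libraries differ in total count. The effect of each cannot be told apart here. Any difference in how the libraries were made could not be told apart from these either and was not tested.

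Hensen's node is the organiser of the chick embryo, and epiblast of the area opaca, which normally forms only extraembryonic ectoderm, can be redirected by a node graft toward neural fates. FGF signalling, together with a fall of BMP and WNT signalling, is known to act in this response. The central pre-streak epiblast is embryonic tissue that has not yet met a node and that holds the precursors of several germ layers.

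The deposited counts summed to 13053810 in the grafted area opaca and 100147917 in the central epiblast. They summed to 14573663 in the ungrafted area opaca and to between 58731944 and 138666339 in the remaining libraries. The minimum of 5 CPM stood for 65.3 counts in the grafted area opaca and 500.7 counts in the central epiblast. At equal CPM the grafted library thus set the precision. A gene far higher in the grafted area opaca could have fewer counts in the central epiblast. CNTN2, for example, had 2083 counts in the grafted area opaca and 217 in the central epiblast. Mitochondrial genes held 3.07% of the counts in the grafted area opaca and 3.36% in the central epiblast. With 1 library a side there was no replicate error, and no test between the groups was possible. Each ratio therefore carries an exact 95% Clopper-Pearson interval, given in parentheses after it, which covers counting error only. A gene was called higher or lower by size alone, where the CPM ratio was at least 2 and the higher library had at least 5 CPM.

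By this rule 1176 of the 9423 genes were higher in the grafted area opaca, which is 12.5%, and 816 were lower, which is 8.66%. In either direction 21.1% were called, and 7431 genes were not. The median log2 ratio over all 9423 genes was 0.07. On the authors' FPKM scale with a pseudocount of 1, 687 genes were higher and 770 lower, so that 47.2% of the called genes were higher, against 59.0% by CPM. With a pseudocount of 0.1, 920 were higher and 929 lower, and 49.8% of the called genes were higher. At the edge of the minimum, LMX1B was inside with 0.689 CPM in the grafted area opaca and 5.01 CPM in the central epiblast. LACE1 was outside with 3.75 CPM in the grafted area opaca and 4.99 CPM in the central epiblast. At the edge of the ratio, ZFYVE20 had 94.5 CPM in the grafted area opaca and 47.2 CPM in the central epiblast and was called, while G2E3, with 123 CPM in the grafted area opaca and 61.5 CPM in the central epiblast, was not. On the lower side, MBNL1, with 20.6 CPM in the grafted area opaca and 41.2 CPM in the central epiblast, was called. MRPL41, with 5.75 CPM in the grafted area opaca and 11.5 CPM in the central epiblast, was not.

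**Figure D1:**
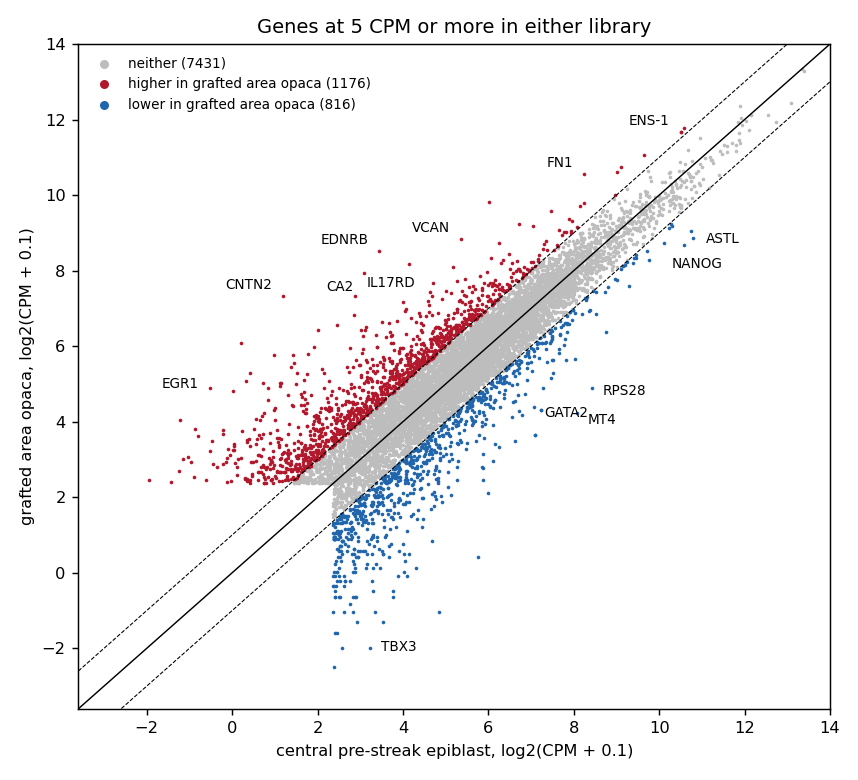
Each point is 1 of the 9423 genes, with its level in the central epiblast on the x axis and in the grafted area opaca on the y axis, both as log2(CPM + 0.1). The solid line marks equal levels and the dashed lines a ratio of 2; the 1176 red genes were higher in the grafted area opaca and the 816 blue genes lower.

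How near the pair stands depended on the genes ranked. Over all 17329 genes, the central epiblast was the library closest to the grafted area opaca, with a Spearman coefficient across genes of 0.965, against 0.964 for the posterior preplacodal region and for the ungrafted area opaca. Over the 10644 genes at 5 CPM or more in any library, the ungrafted area opaca was closest at 0.929 and the central epiblast second at 0.927. Over the 9423 genes of the pair, the ungrafted area opaca stood at 0.919, the posterior preplacodal region at 0.915 and the anterior preplacodal region at 0.909, all above the central epiblast at 0.906. Neural plate was farthest in each ranking, at 0.889 over the genes of the pair. Genes are not independent replicates, and these coefficients describe single libraries.

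The ratio of the pair also moved with transcript length, here the length implied by the deposited counts and FPKM of 9236 of the genes. The median log2 ratio was -0.58 in the 368 genes under 0.5 kb and 0.51 in the 794 genes over 6 kb. Of the shortest genes, 2.45% were higher in the grafted area opaca and 34.2% lower. Of the longest genes, 23.3% were higher and 5.54% lower. The ungrafted area opaca over the central epiblast also climbed with length, with -0.64 in the shortest and 0.37 in the longest genes, whereas the anterior over the central epiblast stayed between -0.05 and 0.03 in every length class. When each ratio was centred on genes of like length, a step chosen after seeing the data, 913 genes were higher and 756 lower. The cause of the slope was not tested. Of 659 measured genes on the gene lists used here, 199 were called, and length centring took 39 of them outside the rule, brought 12 others inside it and gave no value for 6 called genes that lack a length.

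**Figure D2:**
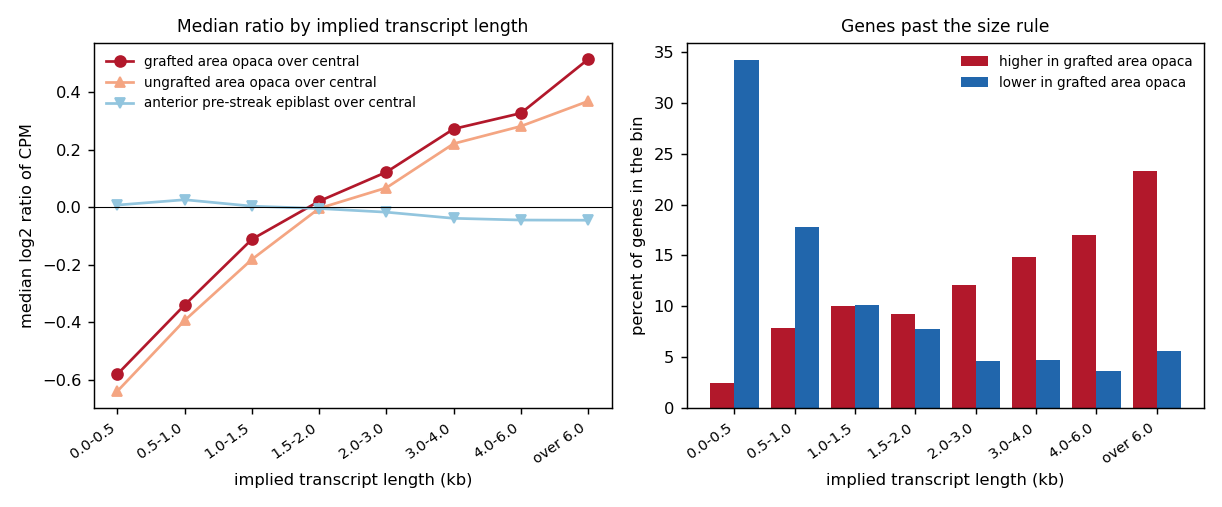
Left, the median log2 ratio of CPM over the central epiblast by implied transcript length in kb, for the grafted area opaca, the ungrafted area opaca and the anterior epiblast; both area opaca libraries climb with length, and the anterior epiblast stays near 0. Right, the percent of genes in each length class called higher and lower in the grafted area opaca, with bars starting at 0.

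The named genes on the higher side differed in the other libraries that shared their level. CNTN2, which encodes an adhesion molecule of axons, had 159.6 CPM in the grafted area opaca and 2.17 CPM in the central epiblast, a 73.6-fold higher level (64.0 to 85.1). EDNRB, an endothelin receptor, had 366 CPM in the grafted area opaca and 10.8 CPM in the central epiblast, which is 33.8-fold higher (31.6 to 36.1). Neither level was carried by ungrafted area opaca, where CNTN2 stood at 0.0686 CPM, a single count, and EDNRB at 4.94 CPM. The anterior epiblast, by contrast, held 46.0 CPM of CNTN2 and 121 CPM of EDNRB. CA2, a carbonic anhydrase, followed the same order across the 4 libraries, with 245 CPM in the grafted area opaca, 6.31 CPM in the ungrafted area opaca, 185 CPM in the anterior epiblast and 8.42 CPM in the central epiblast.

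A second group was high in the grafted area opaca and low in all 3 of these other libraries. TSPAN18, a tetraspanin membrane protein, had 38.7 CPM in the grafted area opaca and 1.23 CPM in the central epiblast, 31.5-fold higher (25.8 to 38.7), with 1.03 CPM in the ungrafted area opaca and 1.74 CPM in the anterior epiblast. GHRH, the gene of growth hormone-releasing hormone, had 54.6 CPM in the grafted area opaca and 2.61 CPM in the central epiblast, 21.0-fold higher (18.2 to 24.2). Its level was 7.55 CPM in the ungrafted area opaca and 1.60 CPM in the anterior epiblast. IL17RD, a feedback inhibitor of FGF signalling also called Sef, belonged here with 159.6 CPM in the grafted area opaca and 7.30 CPM in the central epiblast. ZNF469, with 13.9 CPM in the grafted area opaca and 0.449 CPM in the central epiblast, reached 3.11 CPM in the anterior epiblast.

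Other genes on this side were shared with the ungrafted area opaca. EGR1, an immediate early transcription factor, had 29.4 CPM in the grafted area opaca and 0.599 CPM in the central epiblast, 49.1-fold higher (37.3 to 65.6), and stood at 28.1 CPM in the ungrafted area opaca. ROBO2, a receptor for Slit guidance proteins, had 16.5 CPM in the grafted area opaca and 0.330 CPM in the central epiblast, with 10.1 CPM in the ungrafted area opaca. CDH13, a cadherin held at the membrane by a lipid anchor, had 86.4 CPM in the grafted area opaca and 3.94 CPM in the central epiblast, with 61.3 CPM in the ungrafted area opaca. For these 3 genes the ungrafted and the grafted area opaca stood together, above both epiblast libraries. The remaining named genes on the higher side were low in the ungrafted area opaca and intermediate or high in the anterior epiblast. PKDCC, a secreted kinase, had 33.8 CPM in the grafted area opaca and 1.15 CPM in the central epiblast, and 65.2 CPM in the anterior epiblast. COL1A2, a fibrillar collagen chain, had 53.9 CPM in the grafted area opaca and 1.89 CPM in the central epiblast, and 24.8 CPM in the anterior epiblast. CYP26C1, which breaks down retinoic acid, had 12.2 CPM in the grafted area opaca and 0.479 CPM in the central epiblast, and 0 counts in the ungrafted area opaca, which allows up to 0.206 CPM. TMEFF2 and TMEM121 completed the 15, at 30.3-fold (24.0 to 38.5) and 21.1-fold (17.5 to 25.5).

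**Figure D3:**
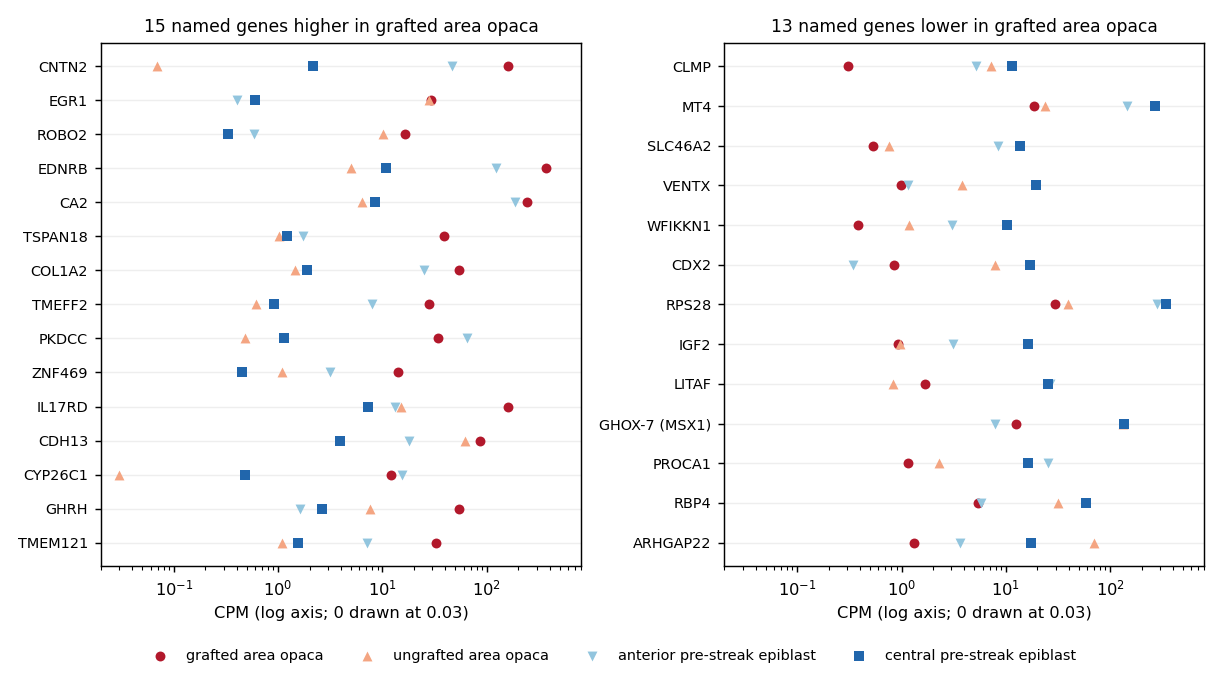
CPM on a log axis of 15 named genes higher and 13 named genes lower in the grafted area opaca, with 1 marker for each of the grafted area opaca, ungrafted area opaca, anterior epiblast and central epiblast. The genes were picked by their ratio in this pair, so the grafted area opaca must lie above the central epiblast on the left and below it on the right. The ungrafted area opaca sits beside either library depending on the gene.

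Homeobox genes were among the named genes on the lower side. VENTX, a gene of the Vent homeobox family, had 0.996 CPM in the grafted area opaca and 19.5 CPM in the central epiblast. CDX2, a caudal homeobox factor, had 0.843 CPM in the grafted area opaca and 17.0 CPM in the central epiblast, 20.2-fold lower (11.2 to 40.5). Both were low in the anterior epiblast too, at 1.14 CPM for VENTX and 0.341 CPM for CDX2. The table lists MSX1, a homeobox target of BMP signalling, under 2 names with nearly the same counts, and its entry GHOX-7 had 12.4 CPM in the grafted area opaca and 137 CPM in the central epiblast.

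The other named lower genes had varied roles. IGF2, an insulin-like growth factor, had 0.919 CPM in the grafted area opaca and 16.3 CPM in the central epiblast, 17.7-fold lower (10.1 to 34.3). RBP4, the carrier of retinol, had 5.44 CPM in the grafted area opaca and 58.8 CPM in the central epiblast. CLMP, a junctional adhesion molecule, had 0.306 CPM in the grafted area opaca and 11.5 CPM in the central epiblast, although only 4 counts lay behind the first value and the interval ran from 14.7 to 138. Both ungrafted area opaca and central epiblast held more RBP4 and CLMP than the grafted tissue, with 31.6 CPM of RBP4 and 7.20 CPM of CLMP in the ungrafted area opaca. ARHGAP22 had 1.30 CPM in the grafted area opaca and 17.5 CPM in the central epiblast, and was at 70.1 CPM in the ungrafted area opaca. SLC46A2, WFIKKN1, LITAF and PROCA1 were lower by 25.2-fold (12.2 to 62.8), 26.5-fold (11.3 to 81.7), 15.2-fold (10.01 to 24.3) and 14.3-fold (8.66 to 25.6). Many of the named lower genes had short implied lengths, which need not be the full lengths of their transcripts. CDX2, VENTX, GHOX-7 and RBP4 had implied lengths of 0.397, 0.596, 0.601 and 0.743 kb. Their log2 ratios after length centring were -3.78, -3.91, -3.08 and -3.05, still past the rule. MT4, a metallothionein, had 18.8 CPM in the grafted area opaca and 268 CPM in the central epiblast, and RPS28, a ribosomal protein, had 29.6 CPM in the grafted area opaca and 342 CPM in the central epiblast. Both were about as low in the ungrafted area opaca, at 23.7 CPM for MT4 and 39.8 CPM for RPS28. Both were high in the anterior epiblast, at 144 CPM for MT4 and 283 CPM for RPS28. They parted in the 4 HH6/7 libraries, where MT4 was low, between 17.7 and 21.6 CPM. RPS28 stood there between 191 and 236 CPM, so only the 2 area opaca libraries were low in it.

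The list counts from here on stand beside 12.5% higher and 8.66% lower over all 9423 genes. A gene nearly absent from 1 library can reach the minimum only through the other and is then called. Each list count is therefore a description. Most measured targets and feedback inhibitors of FGF signalling were higher. Of 17 genes found in the table, 15 reached the minimum, and 9 of these were higher in the grafted area opaca, 1 was lower and 5 were neither, with a median log2 ratio of 1.08 that became 1.71 after length centring. MKP3, the chick entry for the ERK phosphatase DUSP6, had 114 CPM in the grafted area opaca and 7.15 CPM in the central epiblast, 15.9-fold higher (14.6 to 17.4). SPRY2, a Sprouty inhibitor of receptor tyrosine kinase signalling, had 34.0 CPM in the grafted area opaca and 3.11 CPM in the central epiblast, 10.95-fold higher (9.45 to 12.7). ETV4, an ETS factor induced by FGF, had 50.02 CPM in the grafted area opaca and 9.55 CPM in the central epiblast, 5.24-fold higher (4.74 to 5.79). In the ungrafted area opaca these 3 genes were at 0.686, 3.64 and 0.0686 CPM. In the anterior epiblast they were at 67.6, 7.79 and 53.1 CPM.

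The other higher members were IL17RD, EGR1, DUSP5, a nuclear ERK phosphatase, SPRED1 and SPRED2, inhibitors of Ras signalling, and FOS. EGR1 was nearly as high in the ungrafted area opaca, at 28.1 CPM against 29.4 CPM in the grafted area opaca. DUSP5 had 24.1 CPM in the grafted area opaca and 3.18 CPM in the central epiblast. SPRED2, with 39.6 CPM in the grafted area opaca and 19.4 CPM in the central epiblast, was just past a ratio of 2, and its log2 ratio of 0.97 after length centring was not. ETV5, another ETS factor of this group, had 57.1 CPM in the grafted area opaca and 63.4 CPM in the central epiblast and was not called. DUSP7 was lower, with 56.1 CPM in the grafted area opaca and 119 CPM in the central epiblast. Ligands and receptors were mostly outside the rule. Only 7 of 20 found reached the minimum, of which FRS2, the adaptor that docks to FGF receptors, was higher with 16.1 CPM in the grafted area opaca and 5.37 CPM in the central epiblast. FGFR4 was lower with 118 CPM in the grafted area opaca and 261 CPM in the central epiblast. FGFR1, at 149 CPM in the grafted area opaca and 102 CPM in the central epiblast, and FGFR2, at 143 CPM in the grafted area opaca and 75.0 CPM in the central epiblast, were not called.

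Most measured target factors of BMP signalling were lower. Of 12 that reached the minimum out of 19 found, 9 were lower in the grafted area opaca, 3 were neither and 0 were higher. Their median log2 ratio was -2.47, beside 0.07 over all genes. After length centring it was -2.004, a value that leaves out 1 called gene without a length. The median log2 ratio of these 12 genes over the central epiblast was -1.69 in the anterior epiblast and 0.52 in the ungrafted area opaca. TBX3, a T-box repressor, had 0.153 CPM in the grafted area opaca, from 2 counts, and 9.29 CPM in the central epiblast, 60.6-fold lower (16.7 to 501). It reached the minimum through the central epiblast alone. ID1, an inhibitor of helix-loop-helix factors, had 6.82 CPM in the grafted area opaca and 57.5 CPM in the central epiblast, 8.43-fold lower (6.84 to 10.5). GATA2, a zinc finger factor of non-neural ectoderm, had 21.0 CPM in the grafted area opaca and 134 CPM in the central epiblast, 6.37-fold lower (5.65 to 7.21).

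ID2 had 35.5 CPM in the grafted area opaca and 177 CPM in the central epiblast, 4.98-fold lower (4.54 to 5.48). TFAP2A, an AP-2 factor, had 22.7 CPM in the grafted area opaca and 95.9 CPM in the central epiblast, 4.23-fold lower (3.77 to 4.76). MSX2 and DLX5, both homeobox factors, were lower by 7.19-fold (3.99 to 14.5) and 6.19-fold (4.06 to 9.91). ID3, which had 13.2 CPM in the grafted area opaca and 28.0 CPM in the central epiblast, did not pass after length centring, at a log2 ratio of -0.53. In the ungrafted area opaca GATA2 stood at 341 CPM, TBX3 at 47.0 CPM and TFAP2A at 90.3 CPM, all far above the grafted tissue. In the anterior epiblast GATA2 was near the grafted level, at 24.1 CPM, while TFAP2A was below it, at 3.49 CPM, and ID1 above it, at 75.9 CPM. TFAP2C, the other AP-2 gene of the list, was not called, with 167 CPM in the grafted area opaca and 207 CPM in the central epiblast.

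Among the ligands themselves the differences were smaller. BMP7 had 115 CPM in the grafted area opaca and 294 CPM in the central epiblast, 2.55-fold lower (2.42 to 2.69). BMP2 had 5.75 CPM in the grafted area opaca and 13.8 CPM in the central epiblast, and its log2 ratio of -0.70 after length centring was outside the rule. BMP4, with 35.3 CPM in the grafted area opaca and 41.6 CPM in the central epiblast, was not called. BMPR2, a type II receptor, was higher at 26.2 CPM in the grafted area opaca and 9.85 CPM in the central epiblast. Of 8 antagonists measured, 2 were higher, 2 lower and 4 neither. CHRD, the antagonist chordin, had 8.04 CPM in the grafted area opaca and 3.52 CPM in the central epiblast, 2.28-fold higher (1.82 to 2.85). It had 0 counts in the ungrafted area opaca and 81.6 CPM in the anterior epiblast. BMPER, a secreted modulator of BMP, had 40.1 CPM in the grafted area opaca and 16.8 CPM in the central epiblast. SMAD6, an inhibitory SMAD that BMP induces, had 4.06 CPM in the grafted area opaca and 11.2 CPM in the central epiblast, and NBL1 had 11.6 CPM in the grafted area opaca and 24.8 CPM in the central epiblast.

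**Figure D4:**
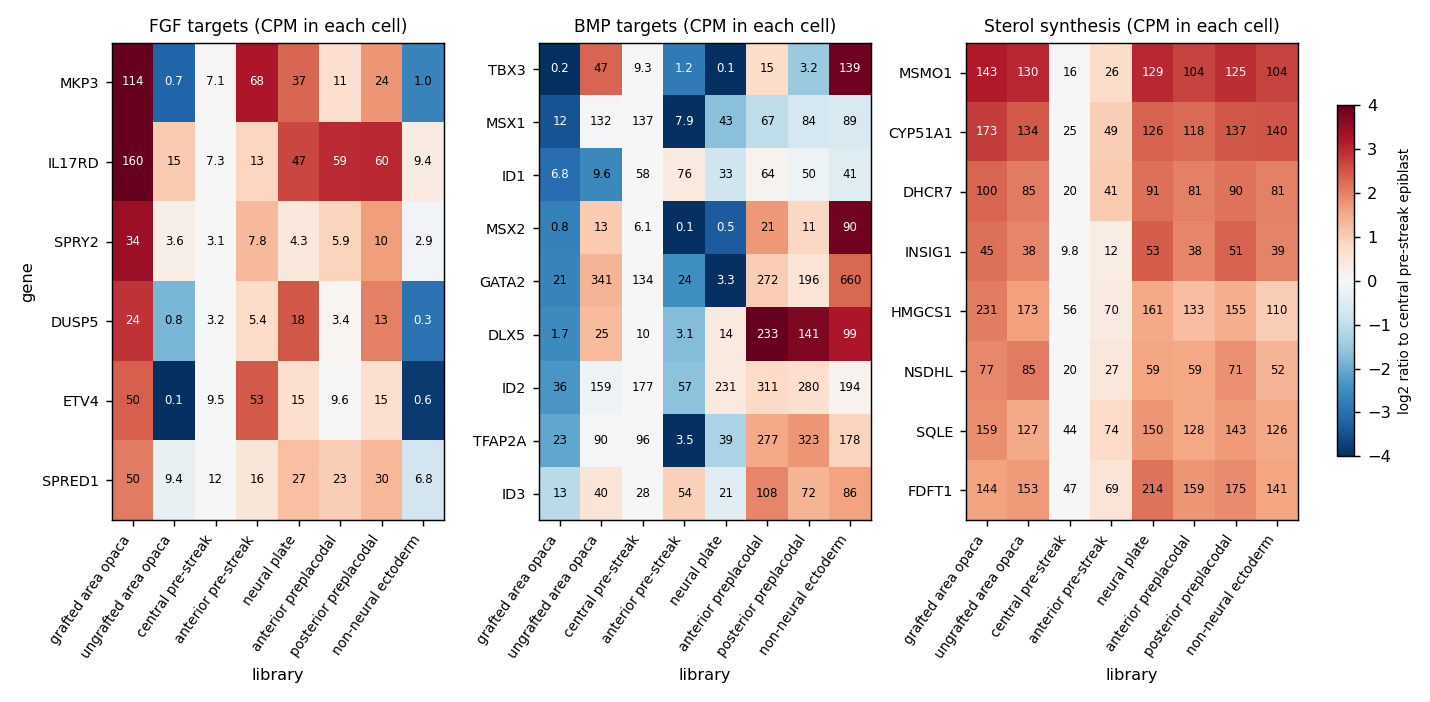
CPM of FGF targets, BMP target factors and sterol synthesis genes in all 8 libraries, with the colour giving the log2 ratio of (CPM + 0.1) to the central pre-streak epiblast. The grafted area opaca is the leftmost column. The 6 FGF targets and 8 sterol genes were drawn from those called higher and the 9 BMP target factors from those called lower. The red and blue of that column therefore follow from the choice of genes. List members called the other way or not called are not drawn. For the sterol genes the ungrafted area opaca and the 4 HH6/7 libraries are red as well.

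Nodal pathway genes were mixed. Of 9 measured, 2 were higher, 2 lower and 5 neither, with a median log2 ratio of -0.07. CVG1, the chick Vg1 ligand that induces the primitive streak, had 3.75 CPM in the grafted area opaca and 27.3 CPM in the central epiblast, 7.26-fold lower (5.48 to 9.84). NODAL stayed below the minimum, with 0 counts in the grafted area opaca, which allows up to 0.230 CPM, and 4.69 CPM in the central epiblast. SMAD2 and ACVR2B, a signal transducer and a receptor of the pathway, were higher by 2.38-fold (2.14 to 2.64) and 2.51-fold (2.20 to 2.85). CFC1, the gene of a Nodal co-receptor, was not called, with 133 CPM in the grafted area opaca and 139 CPM in the central epiblast.

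Most measured WNT ligands were lower. Of 6 that reached the minimum out of 17 found, 5 were lower, 1 was neither and 0 were higher, with a median log2 ratio of -2.33. After length centring 1 was higher and 5 lower, since WNT4, a ligand at a log2 ratio of 0.83, stood at 1.08 when centred. WNT5B, a non-canonical ligand, had 11.2 CPM in the grafted area opaca and 98.6 CPM in the central epiblast, 8.81-fold lower (7.48 to 10.4). WNT5A had 5.44 CPM in the grafted area opaca and 38.2 CPM in the central epiblast, 7.03-fold lower (5.56 to 9.02). WNT8C, a posterior ligand, had 0.766 CPM in the grafted area opaca and 6.17 CPM in the central epiblast. It reached the minimum through the central epiblast alone. WNT3A and WNT11 were lower by 3.61-fold (2.61 to 5.13) and 2.51-fold (1.80 to 3.59). WNT11 was far higher in the ungrafted area opaca, at 246 CPM. Over the measured ligands, the median log2 ratio to the central epiblast was -3.43 in the anterior epiblast and -0.23 in the ungrafted area opaca. Low levels of these ligands were thus shared with the anterior epiblast.

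WNT targets and inhibitors gave 2 higher, 3 lower and 10 neither of 15 measured. AXIN2, a general feedback target of WNT signalling, had 20.7 CPM in the grafted area opaca and 77.3 CPM in the central epiblast, 3.74-fold lower (3.31 to 4.24). SP5, another target, had 1.23 CPM in the grafted area opaca and 5.48 CPM in the central epiblast. The secreted inhibitors went in both directions. SFRP1 had 272 CPM in the grafted area opaca and 35.7 CPM in the central epiblast, 7.63-fold higher (7.28 to 8.00), and FRZB had 58.3 CPM in the grafted area opaca and 22.5 CPM in the central epiblast, 2.59-fold higher (2.38 to 2.81). DKK-1 was lower, with 0.536 CPM in the grafted area opaca and 7.41 CPM in the central epiblast.

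Retinoic acid genes were called in both directions, more of them lower. The degrading enzyme CYP26A1 had 9.19 CPM in the grafted area opaca and 0.599 CPM in the central epiblast, 15.3-fold higher (11.2 to 21.3), and CYP26C1, described above, was higher as well. CYP26B1, another enzyme of this family, was lower, with 1.76 CPM in the grafted area opaca and 9.38 CPM in the central epiblast. The synthetic enzymes ALDH1A2, with 2.91 CPM in the grafted area opaca and 13.7 CPM in the central epiblast, and RDH10, with 8.73 CPM in the grafted area opaca and 25.5 CPM in the central epiblast, were lower. RBP4 and the receptors RARA and RXRA were lower too, which made 2 higher, 6 lower and 4 neither of 12 measured. After length centring 3 were higher and 4 lower. RARA and RXRA were then outside the rule, at log2 ratios of -0.88 and -0.95, and CRABP2, a retinoic acid binding protein, was inside it at 1.39, against 0.83 before. Neural plate held 287 CPM of CYP26A1 and 258 CPM of CYP26C1, levels far above those of the grafted tissue.

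Notch ligands also diverged. JAG1 had 26.7 CPM in the grafted area opaca and 2.95 CPM in the central epiblast, 9.08-fold higher (7.75 to 10.6), and was at 2.47 CPM in the ungrafted area opaca and 2.08 CPM in the anterior epiblast. DLL1 had 1.38 CPM in the grafted area opaca and 14.9 CPM in the central epiblast, 10.8-fold lower (6.84 to 18.3). JAG2 was higher, with 23.5 CPM in the grafted area opaca and 10.3 CPM in the central epiblast, but its log2 ratio fell to 0.76 after length centring. The other 8 of 11 pathway genes measured were neither.

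Most genes of the neural plate list were below the minimum in both libraries. Of 33 found, 9 reached it, and 8 of these were higher and 1 was lower. Genes nearly absent from 1 library must differ if they reach the minimum through the other, so this count is a description. Over these 9 genes the median log2 ratio to the central epiblast was 1.96 in the grafted area opaca. The same median was 1.74 in the anterior epiblast and -1.60 in the ungrafted area opaca. LHX5, a forebrain LIM homeobox factor, had 10.6 CPM in the grafted area opaca and 0.939 CPM in the central epiblast, 11.3-fold higher (8.60 to 14.8). It had 0 counts in the ungrafted area opaca and was close to the grafted level in the anterior epiblast, at 10.9 CPM.

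MSI1, an RNA-binding protein of neural progenitors, had 127 CPM in the grafted area opaca and 16.6 CPM in the central epiblast, 7.62-fold higher (7.11 to 8.16). NCAM1, the neural cell adhesion molecule, had 50.02 CPM in the grafted area opaca and 11.7 CPM in the central epiblast. HESX1 and SOX11 were higher by 3.89-fold (2.93 to 5.12) and 3.18-fold (2.65 to 3.81), while NES and CDH2, at 2.10-fold (1.94 to 2.27) and 2.01-fold (1.75 to 2.30), were outside the rule after length centring. SOX2, a definitive neural plate marker, stayed under the minimum, with 3.91 CPM in the grafted area opaca and 0.140 CPM in the central epiblast, and had 0 counts in the ungrafted area opaca. Neural plate itself had 60.0 CPM of SOX2. ZIC2 was likewise under the minimum, with 3.91 CPM in the grafted area opaca and 2 counts, or 0.01997 CPM, in the central epiblast, and it stood at 124 CPM in the neural plate.

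Genes better known from neurons gave 4 higher, 0 lower and 5 neither of 9 measured, CNTN2 and EDNRB among the higher. STMN2, a microtubule regulator of growing axons, had 18.6 CPM in the grafted area opaca and 1.57 CPM in the central epiblast, 11.9-fold higher (9.68 to 14.6), and was at 1.25 CPM in the neural plate. MAP2, which binds microtubules in dendrites, had 37.3 CPM in the grafted area opaca and 17.2 CPM in the central epiblast, with a log2 ratio of 0.60 after length centring. The neuronal tubulin TUBB3 and the neurofilament gene NEFM were neither, at log2 ratios of -0.26 and 0.04.

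Epiblast genes were strong on both sides. POUV, the chick POU factor related to mammalian Oct4, had 1269.5 CPM in the grafted area opaca and 1966 CPM in the central epiblast and was not called. NANOG, a homeobox factor of pluripotent cells, was lower, with 425 CPM in the grafted area opaca and 1114 CPM in the central epiblast, 2.62-fold lower (2.55 to 2.69), while both the ungrafted area opaca, at 1044 CPM, and the anterior epiblast, at 1001 CPM, were near the central level. SOX3, an early marker of epiblast able to become neural, had 116 CPM in the grafted area opaca and 107 CPM in the central epiblast, and 41.6 CPM in the ungrafted area opaca. DNMT3B and SALL4 were not called either. MYC had 29.4 CPM in the grafted area opaca and 156 CPM in the central epiblast, 5.29-fold lower (4.78 to 5.87), and KLF4 was lower by 3.67-fold (2.42 to 5.83). MYCN, by contrast, had 77.8 CPM in the grafted area opaca and 62.0 CPM in the central epiblast and was not called.

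OTX2, a head homeobox factor also active in epiblast, had 108 CPM in the grafted area opaca and 18.2 CPM in the central epiblast, 5.92-fold higher (5.51 to 6.35). LIN28A and LIN28B, RNA-binding proteins of early embryonic cells, were higher by 2.16-fold (2.06 to 2.25) and 2.03-fold (1.97 to 2.09), and SALL1 by 2.20-fold (2.12 to 2.29). After length centring, LIN28B, SALL1 and TERT were outside the rule, at log2 ratios of 0.73, 0.84 and 0.73. In all, 7 of 19 genes of the epiblast list were higher, 3 lower and 9 neither, with a median log2 ratio of 0.33.

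A list of genes known to respond early to a node graft gave 5 higher, 2 lower and 10 neither of 17 measured. ENS-1, a multicopy element whose reads may be split among copies, had 3275 CPM in the grafted area opaca and 1448 CPM in the central epiblast, 2.26-fold higher (2.24 to 2.29). The anterior epiblast matched the grafted level of ENS-1 at 3231 CPM, and the ungrafted area opaca held 141 CPM. ING5, a chromatin reader, had 58.7 CPM in the grafted area opaca and 14.8 CPM in the central epiblast, and BLIMP-1, a zinc finger repressor, had 40.5 CPM in the grafted area opaca and 13.4 CPM in the central epiblast. ASTL, an astacin metalloprotease, went the other way, with 469 CPM in the grafted area opaca and 1785 CPM in the central epiblast, 3.81-fold lower (3.71 to 3.91), although the ungrafted area opaca was lower still at 152 CPM. EYA2, a transcriptional coactivator of the placode territory, had 8.66 CPM in the grafted area opaca and 6.75 CPM in the central epiblast and was not called.

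**Figure D5:**
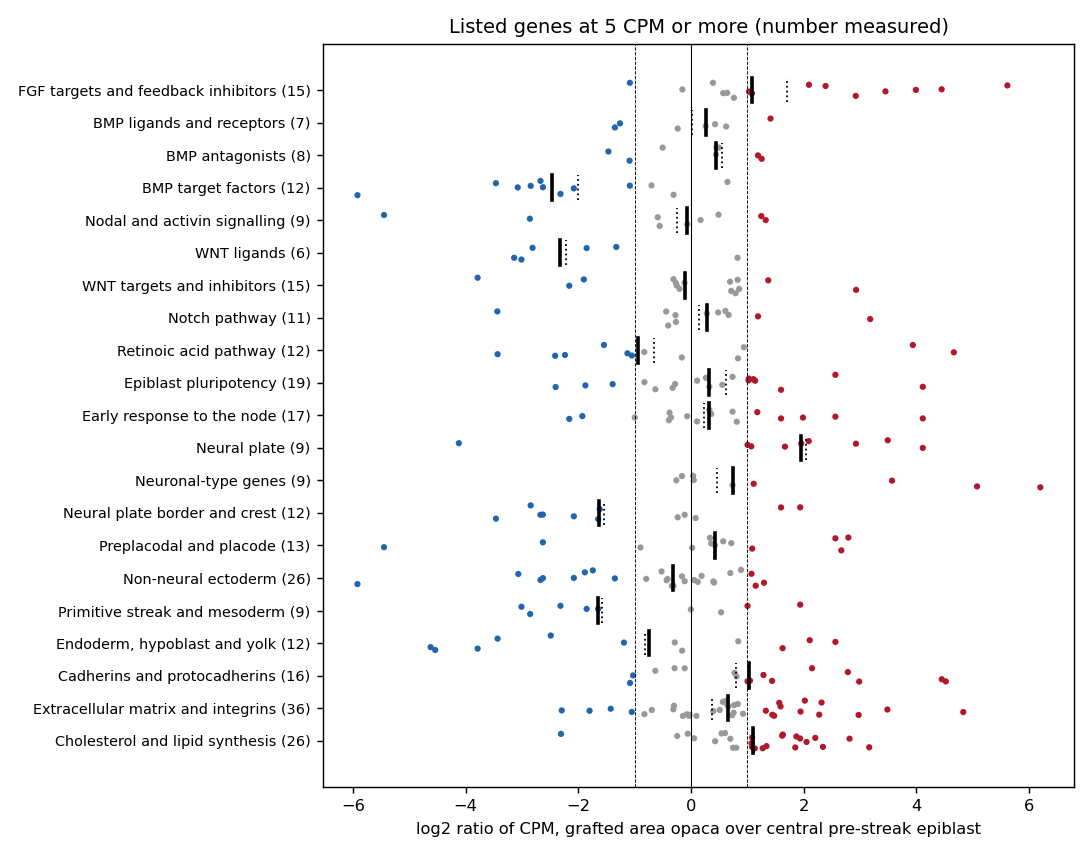
Log2 ratios of CPM, grafted area opaca over central epiblast, of the members of 21 gene lists that reached 5 CPM, with red points higher, blue points lower and grey points neither by the size rule; dashed lines mark a ratio of 2. Solid bars are list medians and dotted bars the medians after length centring of the members with an implied length. They stand at 1.08 and 1.71 for FGF targets and at -2.47 and -2.004 for BMP target factors.

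Neural plate border and crest genes gave 2 higher, 7 lower and 3 neither of 12 measured, with a median log2 ratio of -1.63. The list shares MSX1, MSX2, TFAP2A, GATA2 and DLX5 with the BMP target factors. SNAI2, a repressor active in crest and mesoderm, was lower with 3.45 CPM in the grafted area opaca and 10.8 CPM in the central epiblast. Its relative SNAI1 was higher, with 33.6 CPM in the grafted area opaca and 8.75 CPM in the central epiblast, 3.84-fold (3.41 to 4.31). Preplacodal genes gave 4 higher, 2 lower and 7 neither of 13 measured. The TALE homeobox genes MEIS1 and MEIS2 were higher by 6.36-fold (4.54 to 8.88) and 6.94-fold (5.89 to 8.17). DLX3, a homeobox gene of the preplacodal region and border, was under the minimum in both libraries, with 0.0766 CPM in the grafted area opaca, from 1 count, and 1.63 CPM in the central epiblast.

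Non-neural ectoderm genes were called lower more often than higher. Of 26 measured, 3 were higher, 8 lower and 15 neither, with a median log2 ratio of -0.32. The share higher was near the 12.5% over all genes, and the share lower was above the 8.66% over all genes. Of the 8 lower genes 6 encode transcription factors, with GRHL3, a grainyhead factor of surface ectoderm, at 3.60 CPM in the grafted area opaca and 30.1 CPM in the central epiblast, 8.37-fold lower (6.28 to 11.4). GRHL1 was lower by 3.35-fold (2.99 to 3.75). The others were BMP7 and CLDN4, a claudin of tight junctions, with 1.46 CPM in the grafted area opaca and 5.37 CPM in the central epiblast. On the higher side KRT18, a keratin, had 85.2 CPM in the grafted area opaca and 34.7 CPM in the central epiblast, 2.46-fold higher (2.29 to 2.63), and DSP and DSG2, parts of desmosomes, were higher by 2.11-fold (2.04 to 2.17) and 2.22-fold (1.99 to 2.47). Length centring took DSP and DSG2 outside the rule, at log2 ratios of 0.56 and 0.93, and brought CLDN1, another claudin, inside it at 1.14. All 3 were higher still in the ungrafted area opaca, with 216 CPM of KRT18, 598 CPM of DSP and 120.3 CPM of DSG2. KRT8, KRT19, EPCAM and CDH1, general epithelial genes, were not called.

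Markers of other cell types were compared because the dissected tissue could hold them, and in bulk samples fewer cells of a type and less RNA per cell cannot be told apart. The 7 node and axial mesoderm markers, CHRD, SHH, NOG, FOXA2, NOTO, GSC and T, summed to 64.9 CPM in the grafted area opaca and 49.0 CPM in the central epiblast. The sum was 6.93 CPM in the ungrafted area opaca and 248 CPM in the anterior epiblast. SHH, a defining gene of the mature node and notochord, had 0 counts in the grafted area opaca, which allows up to 0.230 CPM. It had 0.120 CPM in the central epiblast and at most 0.461 CPM in any of the 8 libraries, so its 0 shows little. T, the gene of brachyury, had 24.8 CPM in the grafted area opaca and 17.1 CPM in the central epiblast, and GNOT1, the chick entry for NOTO, had 26.2 CPM in the grafted area opaca and 20.9 CPM in the central epiblast; neither was called. The part of any carried-over node cells in the results was not tested.

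The 6 streak and mesoderm markers found of 7 summed to 15.6 CPM in the grafted area opaca and 70.3 CPM in the central epiblast. MIXL1 was at 0 in both, FOXF1 also in the grafted area opaca and MEOX1 also in the central epiblast. FOXF1 had 0.170 CPM in the central epiblast, under the 0.230 CPM that 0 counts allow in the grafted area opaca. TBX6, a T-box factor of paraxial mesoderm, carried most of both sums. It had 11.9 CPM in the grafted area opaca and 59.2 CPM in the central epiblast, 4.99-fold lower (4.25 to 5.89). EOMES, a T-box factor of the early streak, had 202 CPM in both the grafted area opaca and the central epiblast, and 29.8 CPM in the ungrafted area opaca. The wider streak and mesoderm list gave 2 higher, 5 lower and 2 neither of 9 measured. Its median log2 ratio of -1.65 was 0.53 where the minimum was set at 20 CPM.

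The 8 hypoblast, endoderm and yolk markers summed to 8.58 CPM in the grafted area opaca and 33.1 CPM in the central epiblast. SOX17 and APOB were at 0 in the grafted area opaca, which allows up to 0.230 CPM. Their central levels were under that, at 0.140 and 0.170 CPM, so these zeros show no difference. The wider endoderm, hypoblast and yolk list gave 3 higher, 6 lower and 3 neither of 12 measured. Its median log2 ratio of -0.74 was 0.98 where the minimum was set at 20 CPM. GATA4, GATA5 and GATA6, endodermal GATA factors, were all lower. GATA6 had 1.84 CPM in the grafted area opaca and 10.3 CPM in the central epiblast, 5.62-fold lower (3.75 to 8.81), and GATA4 had 0.306 CPM in the grafted area opaca and 7.55 CPM in the central epiblast. The ungrafted area opaca stood at 10.6 CPM of GATA6 and 8.58 CPM of GATA4, near the central epiblast. LRP2, an endocytic receptor, was higher, with 761 CPM in the grafted area opaca and 177 CPM in the central epiblast, 4.31-fold (4.21 to 4.42). SPINK2 and OTX2 were the other higher members of the list. How far hypoblast cells or precursors of other germ layers in the central dissection set the lower genes was not tested.

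Germ cell markers summed to 38.6 CPM in the grafted area opaca and 32.0 CPM in the central epiblast over 6 genes. PIWIL1 and TDRD9 carried most of the grafted sum, with TDRD9 at 16.6 CPM in the grafted area opaca and 10.7 CPM in the central epiblast. The other markers stood below the central epiblast. The grafted area opaca held 1.76, 0.230 and 0 CPM of DDX4, DND1 and NANOS3, and the central epiblast 2.81, 2.19 and 2.06 CPM. PIWIL1 was higher, with 18.1 CPM in the grafted area opaca and 8.63 CPM in the central epiblast, but outside the rule after length centring, at a log2 ratio of 0.92, whereas DAZL was lower, with 1.92 CPM in the grafted area opaca and 5.56 CPM in the central epiblast. The wider germ cell list gave 5 higher and 2 lower of 10 measured, and 2 higher and 2 lower after length centring. The 5 blood and endothelial markers found of 6 summed to 2.45 CPM in the grafted area opaca and 2.64 CPM in the central epiblast, with HBAA, TAL1 and CDH5 at 0 in the grafted area opaca. All 5 epiblast markers were present in both libraries, at a sum of 2891 CPM in the grafted area opaca and 4542 CPM in the central epiblast.

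Genes that define the older ectoderm were taken from the 4 HH6/7 libraries alone, which share no library with the pair. They were counted only where they reached the minimum in the pair. A gene nearly absent from the central epiblast can reach it only through the grafted library, so the counts are a description. Over all genes 12.5% were higher and 8.66% lower. Of 156 genes highest in the neural plate, 68 reached the minimum in the pair, and 32 of these were higher in the grafted area opaca, 10 lower and 26 neither, with a median log2 ratio of 0.94 (0.74 after length centring). Of 62 genes highest in both preplacodal regions, 43 reached it, with 20 higher, 2 lower and 21 neither and a median of 0.92 (0.76 after length centring). Of 629 genes highest in non-neural ectoderm, 436 reached it, with 77 higher, 119 lower and 240 neither and a median of -0.10 (-0.24 after length centring).

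Cadherins were called higher more often than lower. Of 16 cadherins and protocadherins measured, 9 were higher, 2 lower and 5 neither, with a median log2 ratio of 1.03, or 0.81 after length centring, when 7 were higher and 3 lower. CDH4, the R-cadherin, had 8.04 CPM in the grafted area opaca and 0.349 CPM in the central epiblast, 23.0-fold higher (15.6 to 34.8), with 23.9 CPM in the ungrafted area opaca. CDH11, a cadherin of mesenchyme and neural tissue, had 43.5 CPM in the grafted area opaca and 6.31 CPM in the central epiblast, 6.90-fold higher (6.15 to 7.73), with 4.94 CPM in the ungrafted area opaca. CDH3 was lower, with 607 CPM in the grafted area opaca and 1238 CPM in the central epiblast, 2.04-fold (1.99 to 2.08). CDH1, the E-cadherin of epithelia, was not called, with 76.5 CPM in the grafted area opaca and 82.7 CPM in the central epiblast.

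Matrix genes and integrins gave 12 higher, 4 lower and 20 neither of 36 measured, with a median log2 ratio of 0.65 that was 0.37 after length centring. VCAN, the proteoglycan versican, had 458 CPM in the grafted area opaca and 40.9 CPM in the central epiblast, 11.2-fold higher (10.8 to 11.7), against 109 CPM in the ungrafted area opaca. TNC, the matrix protein tenascin C, had 204 CPM in the grafted area opaca and 26.0 CPM in the central epiblast, 7.87-fold higher (7.45 to 8.31). FN1, fibronectin, had 1515 CPM in the grafted area opaca and 304 CPM in the central epiblast, 4.99-fold higher (4.90 to 5.08), and 2619 CPM in the ungrafted area opaca. The basement membrane collagens COL4A1 and COL4A2 were higher by 3.85-fold (3.71 to 4.00) and 4.85-fold (4.66 to 5.04), and were higher still in the ungrafted area opaca, at 605 and 516 CPM. LAMB3, HAS2, ADAMTS9 and COL2A1 were lower, LAMB3 with 5.52 CPM in the grafted area opaca and 27.1 CPM in the central epiblast.

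Genes of cholesterol and lipid synthesis had the largest share of higher genes among the lists with over 20 genes measured. Of 26, 16 were higher in the grafted area opaca, 1 lower and 9 neither. After length centring 13 were higher and 1 lower, and the median log2 ratio was 1.11 with and without it. MSMO1, which removes methyl groups from sterol precursors, had 143 CPM in the grafted area opaca and 15.9 CPM in the central epiblast, 8.97-fold higher (8.39 to 9.60). CYP51A1, lanosterol demethylase, had 173 CPM in the grafted area opaca and 24.6 CPM in the central epiblast, 7.04-fold higher (6.64 to 7.46). The ungrafted area opaca was close to the grafted tissue for each, with 129.8 CPM of MSMO1 and 134 CPM of CYP51A1. In the anterior epiblast the same genes were at 26.5 and 48.6 CPM.

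HMGCS1, DHCR7, INSIG1, NSDHL, SQLE and FDFT1 were higher by between 3.07-fold and 5.07-fold. SREBF2, the transcription factor that induces the pathway, had 161 CPM in the grafted area opaca and 63.8 CPM in the central epiblast, 2.53-fold higher (2.41 to 2.66). The fatty acid desaturases FADS1 and FADS2 were lower in the ungrafted area opaca than in either library of the pair. FADS1 had 83.9 CPM in the grafted area opaca and 39.8 CPM in the central epiblast, against 13.04 CPM in the ungrafted area opaca, and was outside the rule after length centring. FADS2 had 48.7 CPM in the grafted area opaca and 13.3 CPM in the central epiblast, against 8.58 CPM in the ungrafted area opaca and 44.4 CPM in the anterior epiblast. LSS, FASN, ACACA and SCD were not called. PMVK, a gene of short implied length, was lower with 2.68 CPM in the grafted area opaca and 13.3 CPM in the central epiblast.

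Stress and immediate early genes gave 6 higher, 3 lower and 13 neither of 22 measured. ATF3, a stress-induced factor, had 119 CPM in the grafted area opaca and 24.4 CPM in the central epiblast, 4.87-fold higher (4.57 to 5.19), and 38.5 CPM in the ungrafted area opaca. KLF6 had 16.3 CPM in the grafted area opaca and 1.48 CPM in the central epiblast, 11.04-fold higher (8.91 to 13.7), and 24.2 CPM in the ungrafted area opaca. Leaving aside genes with placeholder names such as LOC numbers, HSPA8, a heat shock cognate, was among the 10 most abundant genes of the grafted area opaca. It was not called. None of the 10 genes taken in this way from either library, which included MT-CO1, EEF1A and ACTB, was called.

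Cell cycle, glycolytic, mitochondrial and chromatin genes were mostly within the rule's bounds. Cell cycle genes gave 0 higher and 4 lower of 33, with CDC6, a replication licensing factor, at 14.9 CPM in the grafted area opaca and 69.2 CPM in the central epiblast. MKI67 and PCNA, genes of proliferating cells, were not called, with 356 CPM of MKI67 in the grafted area opaca and 223 CPM in the central epiblast. Glycolysis and hypoxia genes gave 2 higher and 2 lower of 32, with a median log2 ratio of 0.01 (-0.06 by TMM scaling). Nuclear genes of mitochondrial electron transport gave 0 higher and 6 lower of 55, with a median of -0.25. After length centring 2 were lower, and the median was 0.13. Chromatin regulators gave 4 higher and 1 lower of 42, no larger a share than the 12.5% higher and 8.66% lower over all genes. Among them TET1, which oxidises methylated cytosine, had 73.2 CPM in the grafted area opaca and 20.7 CPM in the central epiblast, 3.54-fold higher (3.28 to 3.83), and TET2 had 22.1 CPM in the grafted area opaca and 7.19 CPM in the central epiblast. Housekeeping genes gave 0 higher and 1 lower of 18, with a median of -0.16.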

How the data were processed

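Messenger RNA was sequenced from chick tissue in 8 libraries, 1 a group. The authors deposited a table of raw read counts for 17329 genes, 16701 by Ensembl identifier and 628 by RefSeq accession, and a table of FPKM for 17327 genes. Per the submitters' processing notes TopHat2 and the galGal4 build were used. No source used here names the counting program, the annotation or the strand setting behind these values, so reads of overlapping genes, antisense genes and near-identical copies may be split or shared. The FPKM values of RefSeq accessions lack the non-neural ectoderm, did not follow the counts of their libraries and were not used. FPKM served for implied transcript lengths and for an alternative scale.

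CPM used column totals. Genes at 5 CPM or more in either library of the pair were kept, and a ratio of 2 was the rule for a call. Exact 95% Clopper-Pearson intervals of the ratio were taken conditional on the summed counts. A count of 0 was given a floor of 3 counts. Reads are not independent molecules, so intervals and floors cover counting error only. The text names, per direction, the 15 genes whose nearer interval bound lay farthest from a ratio of 1. These had 10 CPM or more in the higher library, with 1 taken for each set of genes with like counts. The text also names members of gene lists and the 10 most abundant genes. Genes with placeholder names, such as LOC numbers, were passed over in choosing the 15 and the 10. Some genes this rule names are not reported here. The 9423 genes and the lists were chosen with earlier results of these data known. TMM factors came from edgeR 4.0.16 and size factors from DESeq2 1.42.0 in R 4.3.3, with neither test run. Tables were handled with pandas 2.3.3 under Python 3.11.15, arrays with numpy 2.4.6, and intervals with scipy 1.17.1. The interval and call steps were tested on simulated data. Grouping followed the labels.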

Additional observations from a re-analysis of the deposited data

How the results depend on the processing

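With 1 library a group no replicate could be left out, so leave-one-out values do not exist. No paired analysis was possible because each group has 1 library. The count of higher genes, 1176, was 687 on the FPKM scale with a pseudocount of 1, 738 with a minimum of 20 CPM, 2335 with a ratio of 1.5 and 262 with a ratio of 4. The count of lower genes, 816, was 1377 with a minimum of 1 CPM, 401 with a minimum of 20 CPM, 1709 with a ratio of 1.5, 202 with a ratio of 4 and 537 where the interval's near bound had to reach 2. With a pseudocount of 0.1 in place of 1, the FPKM scale gave 920 higher and 929 lower genes. Fewer or more genes past a stricter or looser rule follow from the rule itself, and the cause of the FPKM shift was not tested. TMM factors gave 1039 higher and 935 lower, DESeq2 size factors 1058 and 916, and length centring, added after seeing the data, 913 and 756. The median of the streak and mesoderm list, -1.65, was 0.53 with a minimum of 20 CPM, where fewer of its genes are measured. It was -0.79 with a minimum of 1 CPM and -1.01 by FPKM with a pseudocount of 1. With a minimum of 20 CPM the medians also moved for FGF targets, 2.10 against 1.08, FGF ligands and receptors, -0.74 against -0.12, WNT ligands, -2.98 against -2.33, WNT targets and inhibitors, 0.69 against -0.11, neural plate border and crest genes, -0.93 against -1.63, and endoderm genes, 0.98 against -0.74. The medians of WNT targets and of endoderm genes thus changed sign. Germ cell markers stood at 0.06 with a minimum of 1 CPM, against 0.83. By FPKM with a pseudocount of 1 WNT ligands stood at -1.70 and caudal and Hox genes at -3.45, against -4.23. Length centring moved FGF targets to 1.71. No called gene among those named or listed changed sign under an alternative. Calls lost numbered 11 of 215 by TMM, among them SPRED2, LIN28B, TERT, NES, CDH2, PIWIL1 and HSPA5, 8 by DESeq2 factors, 35 of 209 by FPKM with a pseudocount of 1 and 39 of 209 after length centring. The grafted library, at 13053810 counts, limits genes near the minimum.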

Other observations

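Lists added after values had been seen describe further gene groups, and their counts support nothing beyond these libraries. Of 43 ribosome biogenesis genes, 0 were higher in the grafted area opaca, 8 lower and 35 neither, with a median log2 ratio of -0.47 that was -0.69 after length centring. CCDC86, NOP9 and NOP56, the last a part of small nucleolar ribonucleoproteins, were among the lower genes, at log2 ratios of -2.94, -2.80 and -1.25. Ribosomal protein genes gave 0 higher and 4 lower of 68, and their median log2 ratio of -0.41 was -0.07 after length centring. RPLP1, a stalk protein of the large subunit, had 408 CPM in the grafted area opaca and 1535 CPM in the central epiblast, and 457 CPM in the ungrafted area opaca. Of 44 endoplasmic reticulum chaperones and secretion genes, 5 were higher, 0 lower and 39 neither, and 3 were higher after length centring. The share higher was near the 12.5% over all genes. HSPA5, a chaperone at the edge of the rule, had 1020.3 CPM in the grafted area opaca and 500.4 CPM in the central epiblast. Its log2 ratio of 1.03 was called, but was 0.95 by TMM, 0.97 by DESeq2 factors, 0.96 with the median ratio set to 0, 0.89 or 0.896 by FPKM and 0.91 after length centring, none of them past the rule. Of 29 lysosomal genes, 2 were higher, 4 lower and 23 neither.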
